A study of Mus musculus with 4 samples.

Results

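The miR-103/miR-107 family of mouse was followed in embryonic stem cells (ESCs) with and without DNA methyltransferases. Its members were the panel probes named mmu-miR-103 and mmu-miR-107, with or without an arm or star suffix, and 2 of the 566 mouse miRNA probes met this rule. Levels were measured with the nanoString nCounter miRNA assay, in which each miRNA is joined to a tag and its molecules are counted with a barcoded probe, so no amplification is needed. The samples were 2 wild-type R1 ESC samples (WT) and 2 samples of triple knockout R1 cells (TKO), which lack Dnmt1, Dnmt3a and Dnmt3b, the maintenance and de novo DNA methyltransferases. Both genotypes were grown on gelatin in serum medium with leukemia inhibitory factor, and the sample labels state 4 days of differentiation before the RNA of either genotype was isolated. The submitters described the replicates as biological. Each genotype was 1 line obtained from another laboratory, so the genotype and the history of the line cannot be told apart. The table lists no probe for them, and the loss of the 3 enzymes could therefore not be checked in these data.

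The members of this family lie within genes for pantothenate kinases, the enzymes that catalyse the first step of coenzyme A synthesis from vitamin B5. They are best known for lowering insulin sensitivity in liver and fat, where caveolin-1 is a target, and for repressing Dicer, the nuclease that releases mature miRNAs from their hairpins. A miRNA selects its target mRNAs mainly by base pairing of its seed near the 5′ end. The study compared the genotypes to ask whether DNA methylation beside a miRNA gene affects the amount of mature miRNA made from it, and it took miR-107 as one of its examples.

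Both mature sequences are shown because they limit what the probes can tell apart. They are RefSeq sequences (GRCm38.p6), given 5′ to 3′ with the seed, bases 2 to 8, in capitals.
miR-103: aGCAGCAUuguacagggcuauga
miR-107: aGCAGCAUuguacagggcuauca
The substitution from miR-103 to miR-107 was G22C, counted from 1 at the 5′ end of the 23 bases, and left 95.7% of the bases identical. Among 1674 distinct mature mouse sequences in the RefSeq table, these 2 were the ones with the seed GCAGCAU. The panel gives miR-103 and miR-107 without an arm, and they were read here as the 3p arms. How far each probe also detects the other miRNA was not tested.

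The hairpins are shown next because the same mature miR-103 comes from 2 genes and the study classed hairpins by the methylation of their surroundings. The 3p arm is in capitals.
Mir103-1: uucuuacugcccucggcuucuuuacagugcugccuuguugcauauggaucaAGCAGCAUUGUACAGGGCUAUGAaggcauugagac
Mir103-2: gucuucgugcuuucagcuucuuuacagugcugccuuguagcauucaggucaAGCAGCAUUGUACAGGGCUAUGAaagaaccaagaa
Mir107: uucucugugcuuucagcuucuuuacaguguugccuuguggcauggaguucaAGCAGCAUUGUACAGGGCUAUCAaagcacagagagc
In GRCm38.p6, Mir103-1 lies at chr11:35782396-35782481 on the plus strand within Pank3, 12.9 kb from the start of that gene. Mir103-2 lies at chr2:131288052-131288137 on the plus strand within Pank2, 26.0 kb from its start. Mir107 lies at chr19:34820687-34820773 on the minus strand within Pank1, 62.7 kb from its start. All 3 hairpins run on the strand of their host gene, and whether they are exonic or intronic was not read here, since gene spans and no exons were used. The study describes the miRNAs it picked for validation, miR-107 among them, as intronic. Identity between hairpins was 80.2% for Mir103-1 and Mir103-2, 80.5% for Mir103-1 and Mir107 and 83.9% for Mir103-2 and Mir107. The 3p arm took bases 52 to 74 of each hairpin. CpG, the dinucleotide that DNA methyltransferases modify, occurred once in Mir103-1, at base 14 on the edge of the 5p arm, and once in Mir103-2, at base 6 before that arm. It did not occur in Mir107, as in 337 of 1005 mouse hairpins (33.5%). From its methylation data, which are not these samples, the study listed the hairpin of miR-107 as bilateral (methylated on both sides), that of miR-103-1 as downstream (methylated after the hairpin) and that of miR-103-2 as flat. The miR-103 probe therefore reads a sum over hairpins of 2 classes, and their shares cannot be told apart here.

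Values are normalized counts, recovered from the deposited log2 values. Their sum over mouse probes ran from 504742 to 595104 per sample, with the lowest in TKO replicate 1. The panel's 33 viral probes, which have no target in mouse cells, averaged 31.5 ± 18.9 (SD over probes). Background was set at 69.2, their mean plus 2 SD, and 238 mouse probes (42.0%) had a mean above it. At a Benjamini-Hochberg adjusted p under 0.05, limma called 24 of the 566 probes lower in TKO cells (4.24%) and 24 higher (4.24%). After sum scaling, that is division of every sample by its own total, the split was 17 lower and 27 higher, and with scaling on the 100 highest probes it was 14 lower and 25 higher. The median log2 difference, TKO minus WT, was -0.12 over all mouse probes, 0.0089 after sum scaling and 0.042 after scaling on the 100 highest probes.

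Of the 2 members, miR-103 gave the stronger probe signal, and both had a mean over the 4 samples above background. WT replicates 1 and 2 gave 957 and 872 normalized counts, TKO replicates 1 and 2 gave 700 and 703. The 95% Poisson intervals, which cover counting error alone, were 895 to 1022 and 816 to 931 for the WT values and 649 to 753 and 650 to 759 for the TKO values. Both TKO values lay below both WT values, and no TKO interval reached a WT interval. Among the mouse probes miR-103 ranked 50 and 51 in the WT samples and 54 and 53 in the TKO samples. Its share of all mouse miRNA counts was 0.163% and 0.147% for the WT pair and 0.139% and 0.122% for the TKO pair. The genotypes thus also did not overlap on this scale. In normalized counts, both TKO values lay below both WT values for 36.0% of all mouse probes. How many probes do so as shares of the total, or with separate Poisson intervals, was not counted.

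In the same samples miR-107 stood close to background. WT replicates 1 and 2 gave 107.02 and 109.76 normalized counts, TKO replicates 1 and 2 gave 71.16 and 49.31. The corresponding 95% Poisson intervals were 87.1 to 130, 90.5 to 132, 55.7 to 89.6 and 36.1 to 65.8, and the interval of TKO replicate 1 reached into that of WT replicate 1. Both TKO values were again below both WT values, but the TKO replicates stood apart from each other by 0.52 on the log2 scale against 0.036 in WT cells. The value of TKO replicate 2 lay under the background of its own sample (71.0), and the TKO mean lay under 69.2. The rank of miR-107 was 181 and 170 in the WT samples against 221 and 295 in the TKO samples.

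**Figure D1:**
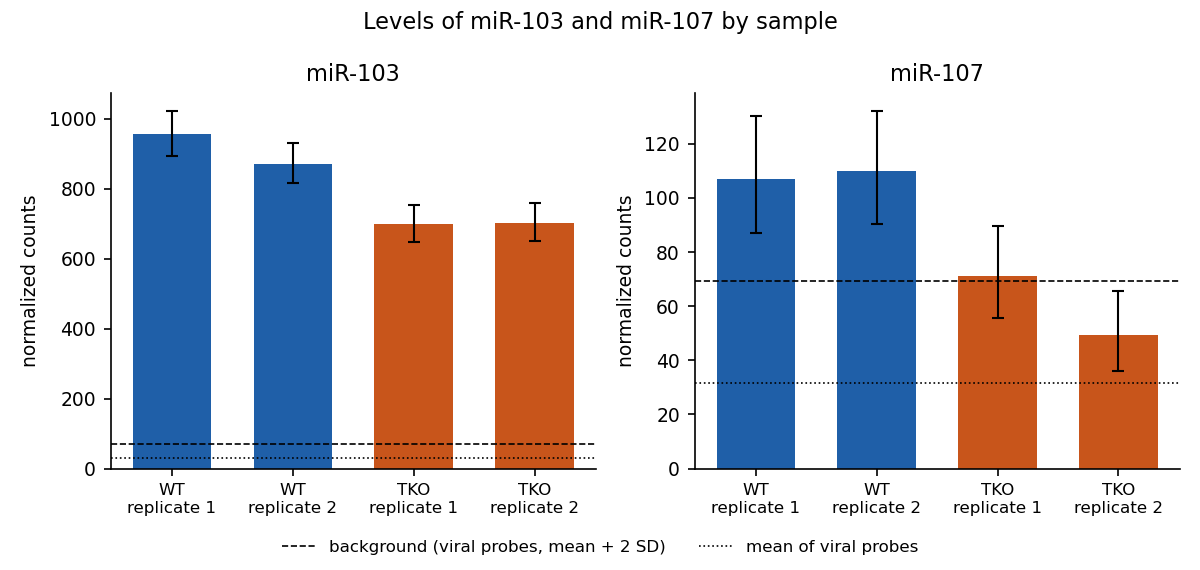
Normalized counts (vertical axes, from 0 and with different scales) of miR-103 (left) and miR-107 (right) in the 2 WT samples (blue) and the 2 TKO samples (orange), with 95% Poisson intervals as error bars. The dashed line is the background of 69.2 and the dotted line the mean of the viral probes, 31.5. All miR-103 bars stand far above both lines, while miR-107 in TKO replicate 2 (49.3) is below the dashed line.

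The mean of miR-103 was 914 ± 59.8 (SD, n = 2) in WT and 701 ± 2.49 (SD, n = 2) in TKO cells, so 76.7% of its level remained. The log2 difference, TKO minus WT, was -0.38 (SE 0.15, 95% interval -0.78 to 0.018), and the limma adjusted p was 0.224. The mean of miR-107 was 108 ± 1.94 (SD, n = 2) in WT and 60.2 ± 15.5 (SD, n = 2) in TKO cells, the latter under background, so no remaining share is given. Its log2 difference was -0.86 (SE 0.23, 95% interval -1.46 to -0.26), with a limma adjusted p of 0.114. Neither miRNA passed the threshold of 0.05, although both had lower values in both TKO samples. Both TKO values lay below both WT values for 36.0% of all mouse probes, and for 52.1% of those above background, so this order is common on the panel. A lower difference than that of miR-103 was found for 145 of the 566 probes, and a lower one than that of miR-107 for 30. In these bulk samples fewer cells with the miRNA and less miRNA per cell cannot be told apart.

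**Figure D2:**
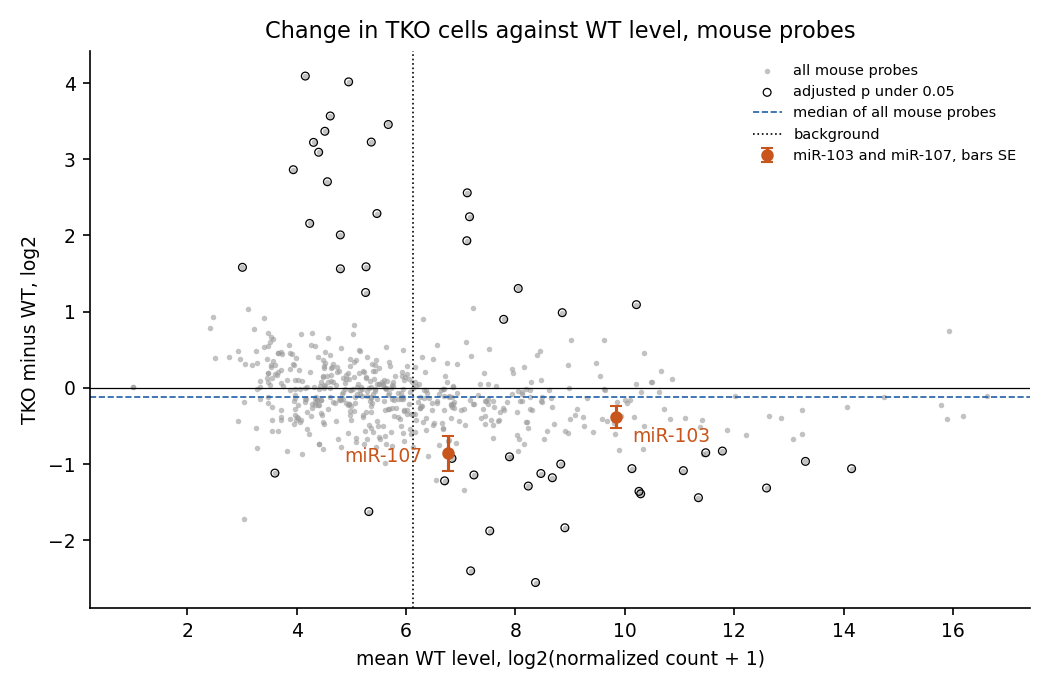
Log2 difference, TKO minus WT, of each mouse probe (vertical axis) against its mean WT level as log2(normalized count + 1) (horizontal axis). Orange points are miR-103 and miR-107 with their SE, open circles are probes with an adjusted p under 0.05, the dashed line is the median of all mouse probes (-0.12) and the dotted line is the background. Both members lie below the median, miR-107 just to the right of the background and miR-103 well above it.

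Whether either miRNA was called depended on the model of the spread and, for miR-107, on the filter. With an intensity trend in the spread, 54 of the 566 probes were called lower. The limma adjusted p of miR-103 was then 0.0425 and that of miR-107 0.0528. With limma voom on the recovered whole counts, which called 55 probes lower (9.72%), both members were among those called, at an adjusted p of 0.0451 for miR-103 and 0.0480 for miR-107. When probes below background were left out, 48 of the 238 kept were called lower, miR-107 among them (limma adjusted p = 0.0317). That filter uses the mean over all 4 samples, which miR-107 passed through its WT values. The call with the filter therefore gives no added support. The difference of miR-103 ran from -0.45 to -0.21 and that of miR-107 from -1.49 to -0.60 over the settings tried, and both were lower in TKO cells under each of them. The lowest value of miR-107 came from subtracting the mean of the viral probes. TKO replicate 2 carried much of its difference, which was -0.60 without that sample and -1.12 without TKO replicate 1. Set against the median of all mouse probes, the log2 difference of miR-103 stood at -0.26 and that of miR-107 at -0.74. After sum scaling these became -0.26 and -0.74, and after scaling on the 100 highest probes -0.25 and -0.74.

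**Figure D3:**
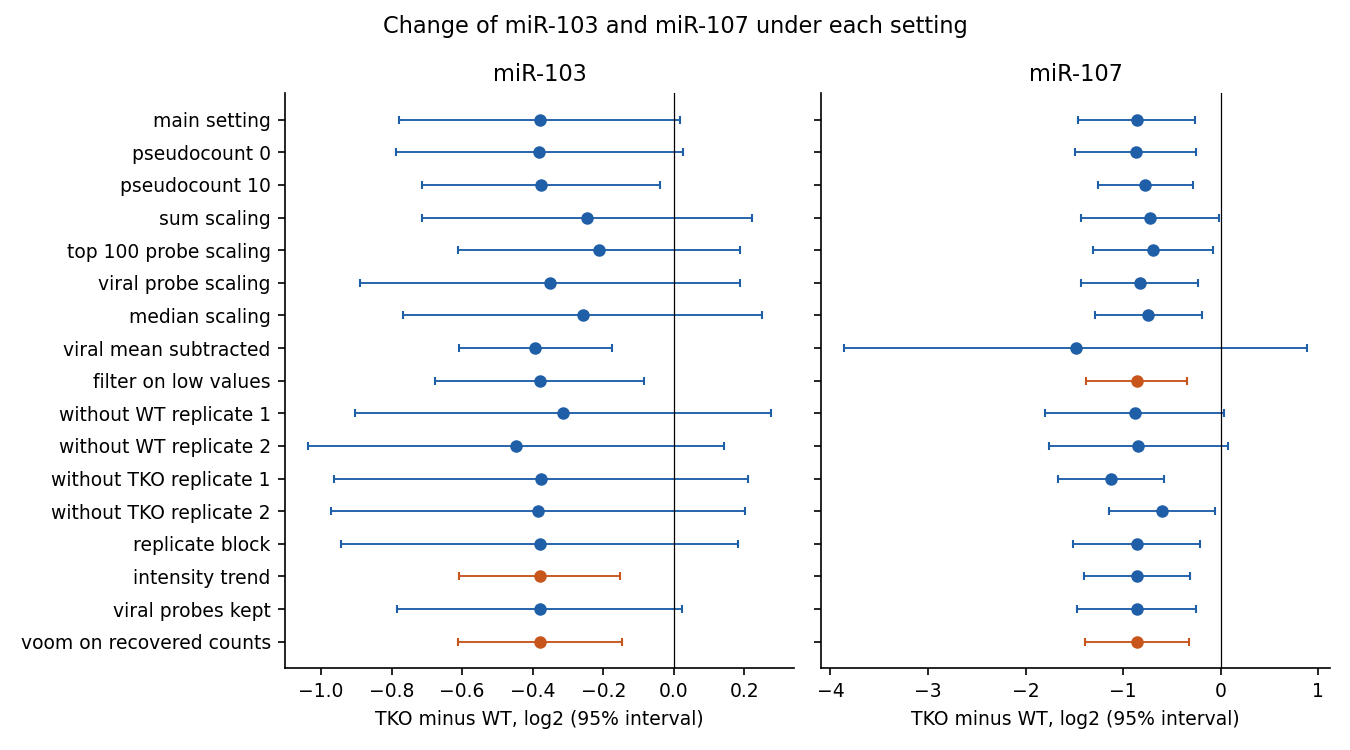
Log2 difference, TKO minus WT, of miR-103 (left) and miR-107 (right) under each processing setting, with 95% intervals from limma as bars and different horizontal scales. Orange marks settings in which the adjusted p was under 0.05. All points lie left of 0, and the intervals of both members include 0 under some settings.

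The ratio of the 2 members varied between samples. miR-103 exceeded miR-107 by 8.94 and 7.95 times in the WT samples and by 9.83 and 14.3 times in the TKO samples, as probe signals whose efficiencies are not known to be equal. The highest ratio belonged to TKO replicate 2, the sample in which miR-107 was under background. The difference of the log2 ratio of miR-107 to miR-103 was -0.48, TKO minus WT, against an SD of 0.12 in WT and 0.37 in TKO cells. An exact two-sided permutation test gave p = 0.333, the smallest that 2 against 2 samples can give, so a change of the ratio was not shown. The difference was -0.22 without TKO replicate 2, -0.74 without TKO replicate 1 and -1.09 with the viral mean subtracted. Summed over both members, the shared seed measured 1064 and 982 normalized counts without the knockout and 771 and 753 with it. The log2 difference of the sum was -0.42 (SD between replicates 0.060), and miR-107 made up 10.1% and 11.2% of it in the WT samples against 9.23% and 6.55% in the TKO samples.

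Pairs of miRNAs that differ by 1 base were sought among the 437 of 566 panel names matched to RefSeq. The search left out miR-376b, miR-376c and the 9 probes that join several miRNAs. It found 15 pairs, and 7 of them, with miR-103 and miR-107 among these, had both members above background. The abundant miR-27a, a regulator of fat cell differentiation, differed by -0.05 between genotypes and its rarer relative miR-27b by -0.80. miR-19a and miR-19b, members of the growth-promoting miR-17-92 cluster, differed by -0.96 and -0.86. The pair miR-29c and miR-29a, which are known to target Dnmt3a and Dnmt3b, went in opposite directions at 1.30 and -0.45, of which miR-29c was called (limma adjusted p = 0.0154). In the pair of miR-465c-5p and miR-465b-5p, from an X-linked germline cluster, both were called higher, at 4.02 (limma adjusted p = 0.00228) and 3.23 (limma adjusted p = 0.00473). Both passed background through their TKO values. The let-7c and let-7b pair and the miR-30a and miR-30e pair each differed by less than 0.1 in their changes. In each pair the rarer member was set by the mean over all 4 samples, so its choice depends partly on the TKO values. Its change minus that of the other was -0.48 for miR-107 and miR-103 and -0.75 for the miR-27 pair. It was -0.79 for the miR-465 pair and -1.76 for the miR-29 pair. It was positive for the miR-19 pair (0.10), the let-7 pair (0.077) and the miR-30 pair (0.081). miR-27b and miR-107 passed background through their WT values and let-7b through its TKO values. These gaps were not tested.

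The miR-15/miR-107 group extends the family to miRNAs that hold AGCAGC at their 5′ end. This stretch starts at base 1 of miR-103 and miR-107 and at base 2 of the others, which shifts the seed by 1 base. Members of the group are known for targeting cell cycle and survival genes, such as the cyclins and Bcl2. They are given here with AGCAGC in capitals, beside the 2 sequences above.
miR-15a: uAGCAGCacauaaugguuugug
miR-15b: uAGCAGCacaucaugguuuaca
miR-16: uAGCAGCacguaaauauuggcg
miR-195: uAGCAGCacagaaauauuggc
miR-322: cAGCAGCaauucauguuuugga
miR-497: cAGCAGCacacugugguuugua
miR-503: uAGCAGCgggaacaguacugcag
All 9 were measured and 7 passed background. In 7 of the 9, both TKO values were below both WT values, and in miR-322 and miR-503 both were above. The first order held for 36.0% of all mouse probes and 52.1% of those above background. Beside 4.24% of all mouse probes called lower, 1 of the 9 was called, miR-15b, which fell from 2852 ± 8.49 to 1580 ± 45.0 normalized counts (SD, n = 2 each, log2 difference -0.85, limma adjusted p = 0.0403). The most abundant, miR-16, had 7395 ± 551 in WT and 5613 ± 326 in TKO cells (SD, n = 2 each, log2 difference -0.40, limma adjusted p = 0.225). miR-322, which comes from an X-linked cluster with miR-503, had 78.1 ± 4.62 in WT and 148 ± 28.9 in TKO cells (SD, n = 2 each, log2 difference 0.90, limma adjusted p = 0.0772). The median over the 9 was -0.39, and it was also -0.39 over the 7 without miR-103 and miR-107, beside -0.12 over all mouse probes. miR-103 and miR-107 supplied 8.106% and 8.003% of the summed signal of the group in WT and 8.77% and 7.91% in TKO cells, so their share overlapped between genotypes.

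**Figure D4:**
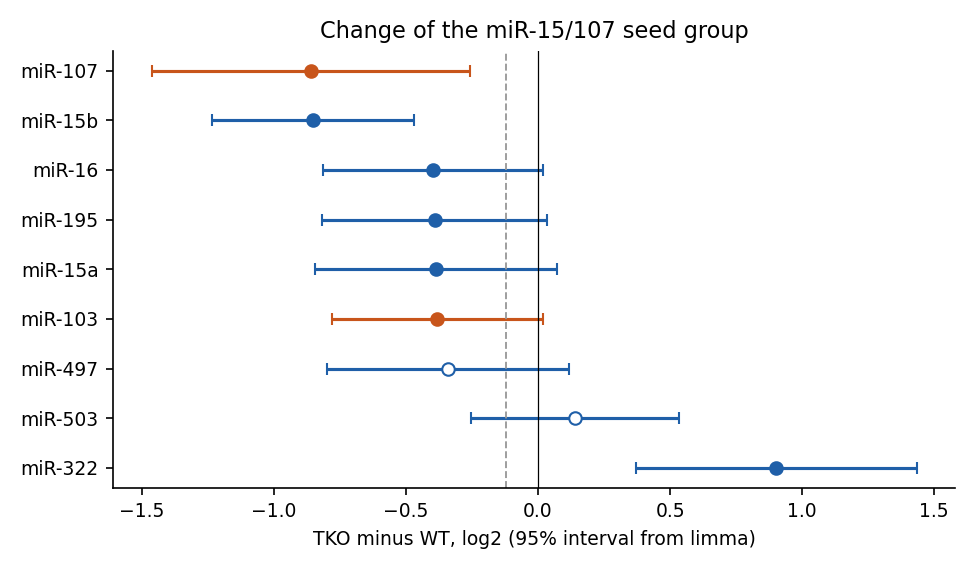
Log2 difference, TKO minus WT, of the 9 members of the miR-15/miR-107 group with 95% intervals from limma. Orange marks miR-103 and miR-107, open points are miRNAs below background, and the dashed line is the median of all mouse probes (-0.12). 7 members lie left of 0, from miR-107 at -0.86 to miR-497 at -0.34, and miR-503 and miR-322 lie right of it.

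Other miRNAs known for lipid or insulin biology lay on both sides of 0. Of 10 listed, 9 were measured and 6 passed background. None was called by limma, where 4.24% of all mouse probes were called in each direction. At an unadjusted p under 0.05, and also with voom after adjustment, 2 were higher, miR-335-5p and miR-335-3p, the arms of a single hairpin. Of all 566 mouse probes, 46 were higher at an unadjusted p under 0.05 and 30 with voom. The log2 difference was negative for 5 and positive for 4, and the median over the 9 was -0.01 beside -0.12 over all mouse probes. miR-33, which lies in a sterol-regulated gene and limits cholesterol efflux, differed by -0.22. miR-122, the abundant liver miRNA, and miR-375, a miRNA of pancreatic islets, differed by -0.02 and 0.06, both at levels below background. miR-335-5p, whose hairpin lies in the imprinted gene Mest, had the highest difference of the list, at 151 ± 34.8 in WT and 309 ± 22.8 in TKO cells (SD, n = 2 each, log2 difference 1.04, limma adjusted p = 0.0671). The sign of the median was not stable, since it was 0.12 after sum scaling and 0.16 after scaling on the 100 highest probes.

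By the study's methylation classes, miR-107 belonged to 22 panel miRNAs whose hairpins were listed as bilateral alone. Of the 22, 12 passed background. The median difference of the 22 was 0.02, with 11 lower and 11 higher in TKO cells. The sign of this median turned, to -0.14 with the filter on low values, -0.15 without TKO replicate 2 and -0.08 without WT replicate 2. 1 of the 22 was called, miR-125a-3p (log2 difference -0.93, limma adjusted p = 0.0403). In 8 of the 22 (36.4%) both TKO values lay below both WT values, close to the 36.0% of all mouse probes. miR-107 had the third lowest difference of this class, after miR-101a at -0.99 and miR-125a-3p. It was followed by miR-32 at -0.80 and miR-34a at -0.69. The mean of miR-101a, 37.3, was below background. The bilateral examples of the study were miR-125a, miR-101a and miR-107, and it marked its examples on its plot of these data. It described its methylated examples as clearly different between WT and TKO cells. The rank of miR-107 therefore gives no independent support. At the other end, miR-142-3p, a miRNA of blood cells, had a difference of 0.63. The 80 miRNAs listed as downstream alone had a median of -0.16, and the 230 listed as flat alone a median of -0.11. miR-103, with a hairpin in each of these classes, was counted in neither. It was among 33 probes of more than 1 class, which were left out, as were 97 probes not listed.

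The miRNAs whose values moved most like a member were named by the distance between log2 values centred over the 4 samples. For miR-103 these were miR-26b (distance 0.027), miR-467f (0.032) and miR-342-3p (0.044). miR-467f was also of like abundance, at 1005 and 933 normalized counts in WT and 739 and 760 in TKO cells. For miR-107 they were miR-669f (0.21), miR-374 (0.21) and miR-32 (0.23), at distances several times those of the miR-103 set. Of these, miR-32 belonged to the bilateral class too. In level, the neighbours of miR-103 in WT cells were miR-125a-5p, at 974.9 and 869 in the WT samples against 827 and 794 in the TKO samples, and miR-669a, at 930 and 878 in the WT samples against 574 and 612 in the TKO samples. The WT values of all 3 overlapped. The neighbours of miR-107 were miR-27b, at 110.23 and 106.84 in the WT samples against 65.2 and 59.0 in the TKO samples, and miR-379, at 93.1 and 123 in the WT samples against 133 and 135 in the TKO samples. Near its own level, miR-107 thus had one neighbour with lower and one with higher TKO values.

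**Figure D5:**
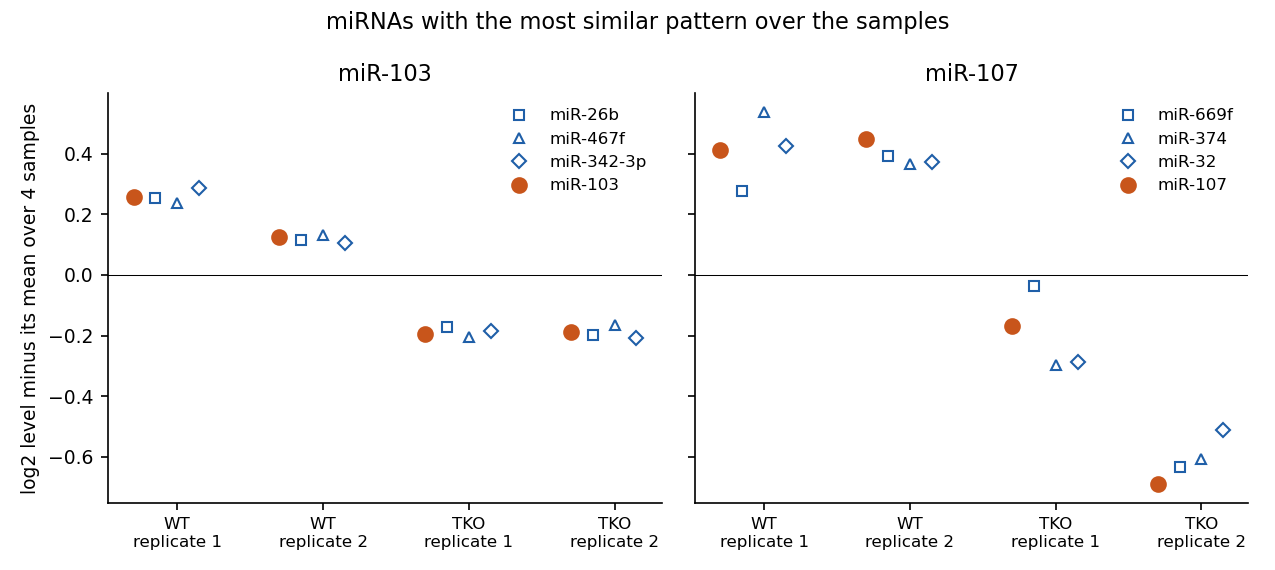
Log2 level minus its mean over the 4 samples (vertical axis) in each sample, for miR-103 (left) and miR-107 (right) as filled circles and for the 3 miRNAs nearest to each in pattern as open symbols. The miR-103 set lies close to its member in each sample, and the miR-107 set spreads more widely, with miR-107 lowest of its set in TKO replicate 2.

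Markers of cell state were read beside these values. The miR-290 to miR-295 cluster, which marks undifferentiated mouse ESCs, had 8 of 9 probes above background. Its summed level was 338086 and 332078 normalized counts in WT and 271468 and 295001 in TKO cells. limma called 0 of its 9 probes, also at an unadjusted p under 0.05, and voom called 3 lower, miR-291a-5p, miR-293 and miR-295. Of all mouse probes, voom called 9.72% lower. The let-7 family, which rises on differentiation, had 7 of 8 probes above background and sums of 1599 and 1654 in the WT samples against 1670 and 1321 in the TKO samples, so the genotypes overlapped. Its best-known member, let-7a, was at 1 recovered count in every sample, far under the viral mean of 31.5, and miR-155 had the same values. Whether let-7a is absent from the cells cannot be read from this. The 5 fibroblast markers, of which 3 passed background, summed to 867 and 859 in the WT samples against 1246 and 1227 in the TKO samples. The higher sum came from miR-21, which was called higher, from 449 and 476 to 910 and 925 (log2 difference 0.99, limma adjusted p = 0.0263). In that list 3 log2 differences were negative and 2 positive. miR-199a-3p had lower TKO values, at 95.2 and 122 in WT against 72.2 and 61.1 in TKO cells. miR-145 differed by -0.29, and miR-199a-5p and miR-214, both below background, by -0.12 and 0.22. The part of cell state in the lower miR-103 and miR-107 values was not tested.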

How the data were processed

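Total RNA of 2 WT and 2 TKO samples was profiled on the nCounter mouse miRNA panel. The authors deposited 1 table of log2 values of normalized counts. The authors' software was nSolver, whose version, background handling and scaling probes were not given in the sources used here. Values were raised back to normalized counts, and 33 viral probes were used as background. Whole counts were recovered from the smallest step of each sample, with all values whole within 0.05, giving totals over all probes from 511661 to 613666. The number of counts limits precision, and Poisson intervals cover counting error alone.

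The genotypes were compared with limma 3.58.1 (R 4.3.3) on log2(normalized count + 1), with a pseudocount of 1, over 566 mouse probes, two-sided and with Benjamini-Hochberg adjustment at 0.05. The code was checked on simulated data. Python 3.11.15 and scipy 1.17.1 gave intervals and the exact permutation test. The family, the miRNA lists and the rule for named miRNAs were chosen with earlier results of these data known. Named were both members, the listed miRNAs, the 3 most similar patterns per member among probes above background, the neighbours in WT level, and pairs that differ by 1 base. Alternatives changed the pseudocount, scaling, background, filter, model, replicate block and samples used. RefSeq (GRCm38.p6) supplied sequences, with 437 of 566 panel names matched.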

Additional observations from a re-analysis of the deposited data

How the results depend on the processing

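miR-103 and miR-107 had lower values in TKO cells under each of the alternatives tried. miR-103 passed the threshold with an intensity trend (-0.38) and with voom (-0.38). miR-107 passed it with voom (-0.86) and with the filter on low values (-0.86), a filter it met through its WT values. Leaving out 1 sample gave -0.45 to -0.31 for miR-103 and -1.12 to -0.60 for miR-107, -0.74 to -0.22 for the ratio and -0.48 to -0.37 for the sum. The ratio was -1.09 after subtraction of the viral mean. The sum moved to -0.29 with sum scaling, -0.26 with scaling on the 100 highest probes and -0.30 with median scaling. The 48 probes called became 74 with the filter, 84 with the trend and 85 with voom, and 0 to 14 when 1 sample was left out. Without either TKO replicate limma called 0, with 75 lower and 39 higher (without TKO replicate 1) or 64 lower and 37 higher (without TKO replicate 2) at an unadjusted p under 0.05. The median of the metabolic list moved to 0.16 with scaling on the 100 highest probes and ran from -0.11 to 0.14 over samples left out. The median of the bilateral class moved to 0.19 with that scaling and to -0.14 with the filter, and ran from -0.15 to 0.12 over samples left out. The median of the miR-15/miR-107 group stayed between -0.46 and -0.22. The cause of these shifts was not tested.

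Samples with the same replicate number did not deviate together (r = -0.09 over 566 probes and -0.24 over the 238 above background), so the numbers were not taken as pairs. With the replicate block 30 probes were called, 10 lower and 20 higher, and the differences stayed at -0.38 for miR-103 (limma adjusted p = 0.418) and -0.86 for miR-107 (limma adjusted p = 0.164). With the numbers crossed, an alternative chosen after seeing the data, 64 probes were called, 37 lower and 27 higher. Counting depth limits miR-107, whose recovered counts were 100 and 113 in the WT samples against 72 and 46 in the TKO samples.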

Other observations

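CpG content was also counted in the promoter windows of the host genes. The count was of the letters CG in RefSeq promoter windows of 300 bases (GRCm38.p6), of which a gene can have several. Its median over 32851 mouse windows was 7. The window of Pank3, which covers the gene start used above, held 20, and 26.5% of windows held at least as many. Pank2 had windows with 30, 51 and 3, of which only the last covers the gene start used above. Pank1, the host of miR-107, had windows with 10 and 8, and neither covers the gene start used above. The windows thus lie at unlike positions, and the hosts cannot be compared at their starts. These windows lie far from the hairpins, and no methylation value was read for them here.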
